A study of Mus musculus with 2 samples.

Results

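The epithelial junction and keratin genes described here are 39 genes that build the contacts between epithelial cells and the keratin filaments anchored to them. They were picked by name: a row belonged when its symbol was 1 of the 39 listed, which gave 39 of 24369 rows (0.160%), comprising 12 claudins, 10 other tight junction genes, 3 polarity genes, 3 adherens junction genes, 6 desmosome genes, Epcam and 4 keratins. The cells were type II pneumocytes (alveolar type 2 cells) sorted from lungs of wild-type (WT) C57BL6 mice at postnatal day 28 (P28) and postnatal day 7 (P7). There was 1 RNA-seq library per age, and neither the sort markers nor the number of animals behind a library is given in the sources used here. Each library gave 1 RPKM value per gene, that is its reads divided by its length and by the number of reads in the library. Levels can therefore be compared between genes within a library, while a comparison between ages depends on how the libraries are scaled.

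Tight junctions seal the space between neighbouring epithelial cells near their apical edge. Claudins form the strands of the seal and set which ions pass, and cytoplasmic scaffolds such as ZO-1 tie the strands to actin. Below them, E-cadherin and its catenins form the adherens junction, and desmosomes hold cells together through links to keratin filaments. In the alveolus these contacts keep the airspace free of interstitial fluid, and type 2 cells carry them both with each other and with type 1 cells.

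With 1 library per age no test was possible, and "higher" and "lower" compare these 2 libraries. Most low RPKM values lay on whole steps of 1 read, which put the reads in the RPKM denominator at about 24539877 for P28 and 17546938 for P7. Intervals given below are exact 95% counting intervals of the RPKM ratio, P28 over P7, and cover counting error only. The surfactant gene Sftpc had 24085 RPKM at P28 and 13343 RPKM at P7, and all 10 type 2 cell markers examined were measured in both libraries. Of these, 9 were higher at P28, with a median log2 ratio of 0.54 (0.15 with equal totals) and a summed RPKM of 35099 at P28 and 18307 at P7. The 10 most abundant genes held 44.0% of the total RPKM at P28 and 27.9% at P7. Other genes therefore held a smaller share of that total at P28. The total itself was 143071 RPKM at P28 and 108758 at P7, so a smaller share need not mean a lower deposited RPKM. With both libraries brought to the same total, the median gene had a log2 ratio of -0.38 in place of the deposited -0.08, a shift of -0.29. Xist had 0.245 RPKM at P28 and 52.7 at P7, while the Y-linked genes Ddx3y, Eif2s3y, Kdm5d and Uty lay between 2.16 and 7.19 RPKM at P28 and at 0 at P7, so the age of the animals and their sex cannot be told apart.

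All 39 genes were detected in both libraries, and most were lower at P28 by less than 2-fold. Their summed RPKM was 450 at P28 and 620 at P7, or 0.314% and 0.570% of the library total, and 35 of the 39 had the lower value at P28. Fewer cells of a type and less RNA per cell cannot be told apart in such bulk values. Of the 34 genes that reached 1 RPKM in either library, none was at least 2-fold higher at P28 on the scale of log2(RPKM + 1), where 1.18% of 9653 genes were. At least 2-fold lower was 1 gene (2.94%), the claudin Cldn6, against 1.96% of all genes, so the 2-fold call did not set these genes apart. On the plain RPKM ratio, which has no pseudocount, Krt7 and the sparsely read Cldn2, Cldn4 and Dsc2 were also past 2-fold lower, Dsc2 with an interval that holds 1. Smaller differences ran mostly one way. The log2 ratio was below 0 in 31 of the 34 (91.2%, against 60.7% of all genes) and at or below -0.5 in 7 (20.6%, against 10.5%), and the median was -0.31, against -0.08 over all genes. With both libraries at the same total, 5 of the 34 were at least 2-fold lower (Cldn6, Cldn18, Tjp1, Pard6b and Krt7), where 4.61% of all genes were, and none was higher, where 0.673% were.

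**Figure D1:**
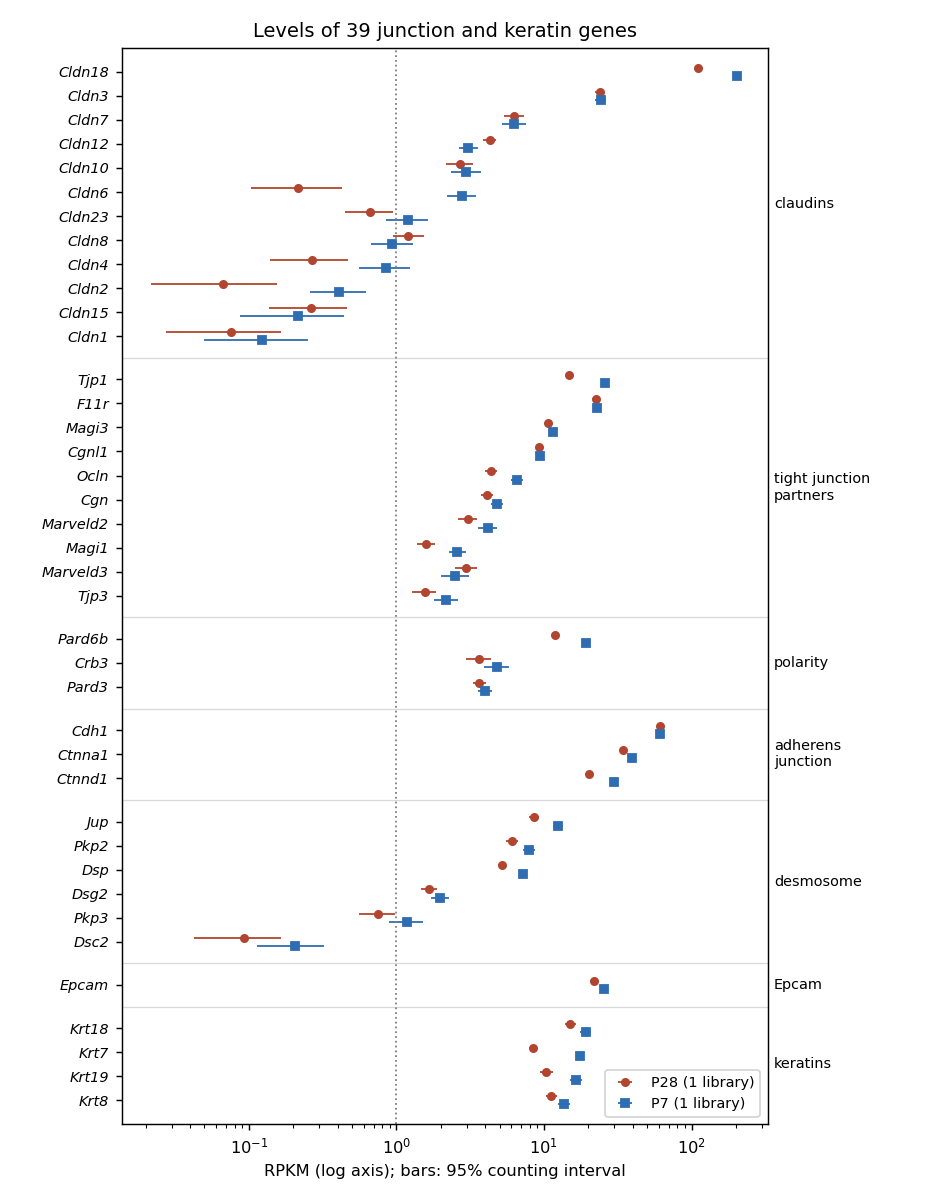
RPKM (log axis) of each of the 39 genes in the P28 library (circles) and the P7 library (squares), grouped by role and ordered by the P7 value, with bars for the exact 95% counting interval of each level and a dotted line at 1 RPKM. Cldn18 is at the top of the range in both libraries (111 RPKM at P28, 202 at P7), 5 genes lie left of 1 RPKM in both, and Cldn6 shows the widest gap between the libraries.

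Counting error was small for most of these genes. The interval of the ratio lay wholly below 1 in 22 of the 34 genes (64.7%), where 33.2% of 9542 genes with a transcript length did, and wholly above 1 in 1 gene (2.94%), Cldn12, where 18.0% did. The 34 genes had more reads behind them than the usual gene, with medians of 470 reads at P28 and 462 at P7 against 223 and 173, so their intervals are narrower and exclude 1 more readily. For 11 genes the interval held 1. Exons of 9 of the 39 genes overlap another annotated gene, 8 of them on the opposite strand (Tjp3, Dsp, Krt7, Krt8, Crb3, Ctnna1, Dsg2 and Cldn3) and Ctnnd1 on the same strand, so some reads of these 9 may belong to the neighbour. These intervals leave out the variation between animals, which 1 library per age cannot show.

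**Figure D2:**
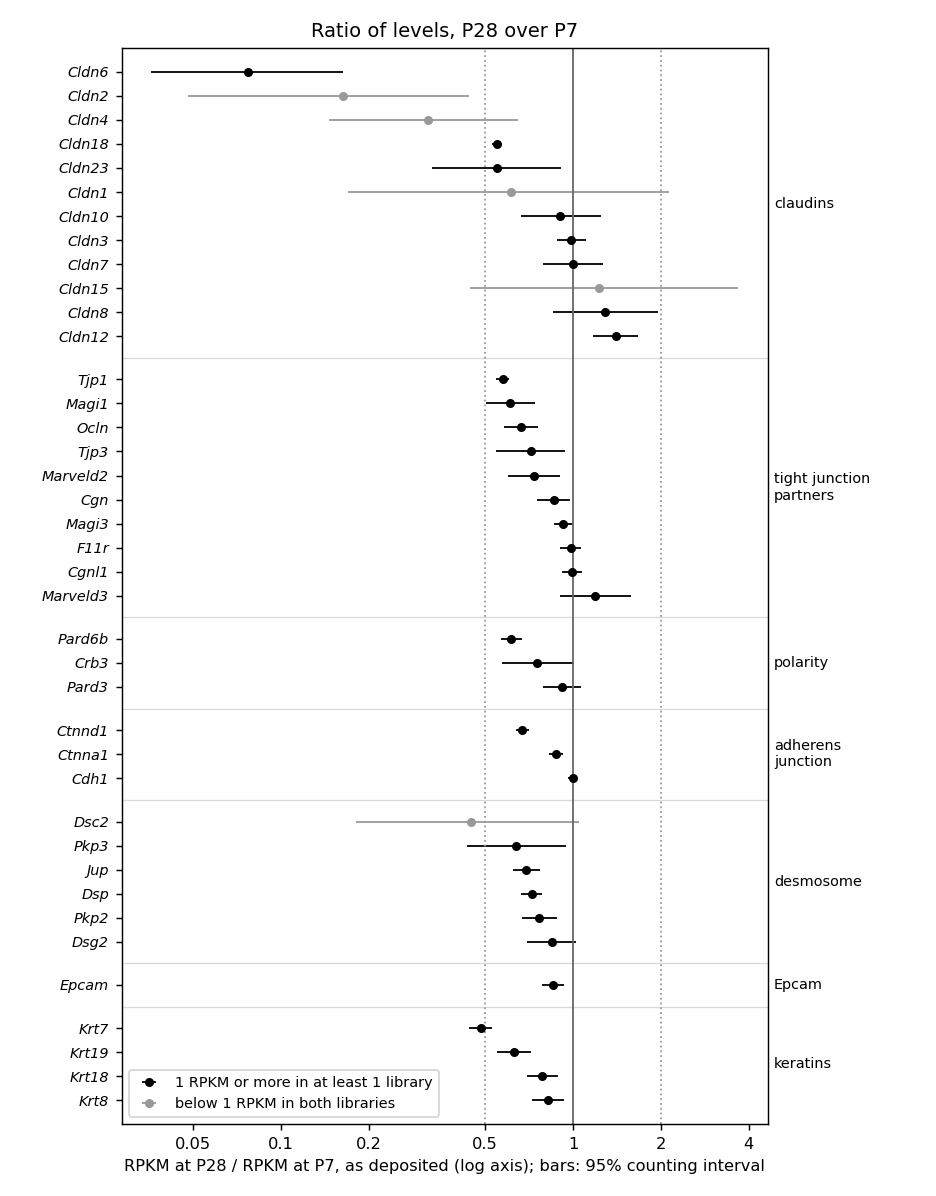
Ratio of RPKM at P28 to RPKM at P7 as deposited (log axis) with its exact 95% counting interval for the 39 genes, ordered within each role, with grey points for the 5 genes below 1 RPKM in both libraries. The solid line marks equal levels and the dotted lines 2-fold. Keratins and desmosome genes lie left of the solid line, while claudins spread from 0.0774 (Cldn6) to 1.40 (Cldn12).

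The claudin set was dominated by Cldn18 at both ages and was the most varied of the roles. Cldn18 (chromosome 9, 99689461 to 99717267, minus strand, GRCm38) had 111 RPKM at P28 and 202 RPKM at P7, and ranked 88th and 30th of all rows. It was 1.82-fold lower at P28 (ratio 0.548, interval 0.529 to 0.568), with a log2 ratio of -0.86 as deposited and -1.25 with equal totals. Cldn18 has alternative starts. The upstream one is known to give the lung form of claudin-18 and the downstream one the stomach form, and the deposited value is 1 number for the gene, so the forms cannot be separated here. Cldn3, a sealing claudin prominent in type 2 cells, had 23.9 RPKM at P28 and 24.2 at P7 (ratio 0.988, 0.883 to 1.11). Cldn7, a claudin of lateral membranes that binds Epcam, likewise had 6.27 and 6.29 RPKM at P28 and P7 (ratio 0.996, 0.788 to 1.27). Cldn3 and Cldn7 therefore kept nearly the same deposited level while Cldn18 was lower, and with equal totals their log2 ratios were -0.40 and -0.35.

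Claudin make-up within a library does not depend on how the libraries are scaled to each other. Cldn18 held 73.5% of the summed claudin RPKM at P28 and 82.5% at P7, and Cldn3 held 15.8% at P28 and 9.86% at P7. The Cldn18 level was 4.64 times that of Cldn3 at P28 and 8.36 times at P7, a change of 0.555 (log-normal 95% interval from read numbers, 0.494 to 0.624). The summed claudin RPKM was 151 at P28 and 245 at P7.

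Among the less abundant claudins the differences ran in both directions. Cldn6, known from embryonic epithelia, had 0.216 RPKM at P28 and 2.79 RPKM at P7, about 9 and 79 reads. It was 12.9-fold lower (6.15 to 27.8), with a log2 ratio of (RPKM + 1) of -1.64, the only one of the 34 genes past 2-fold on that scale. It lies on chromosome 17 (23679249 to 23682446) 0.138 kb from the paralog Cldn9, which had 0 reads at P28 and 1 read at P7. Cldn12, a claudin that lacks the usual scaffold-binding end, had 4.31 RPKM at P28 and 3.08 at P7 (ratio 1.40, 1.17 to 1.67). Its log2 ratio of 0.38 became 0.07 with equal totals, and it was the only one of the 34 genes still above 0 on that scale. Cldn8 had 1.21 RPKM at P28 and 0.939 at P7 (0.856 to 1.95), and the pore-forming Cldn10 had 2.70 at P28 and 2.98 at P7 (0.662 to 1.24), both with intervals that hold 1. Cldn23 had 0.659 RPKM at P28 and 1.2 at P7 (ratio 0.551, 0.330 to 0.908). Over the 8 claudins measured at 1 RPKM or more the median log2 ratio was -0.06. It was 0.02 with the median gene set to 0, and -0.40 with equal totals, where the median gene had -0.38. As a group the claudins thus lay close to the median gene, with 4 of the 8 below it as deposited.

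The 4 claudins below 1 RPKM in both libraries rest on few reads. Cldn4, which is known from alveolar barrier function after injury, had 0.269 RPKM at P28 and 0.847 at P7, 12 and 27 reads (ratio 0.318, 0.147 to 0.649). Cldn2, which forms cation pores, had 0.0663 RPKM at P28 and 0.407 at P7, 5 and 22 reads (ratio 0.163, 0.0481 to 0.440). Both were lower at P28 beyond counting error, while Cldn15 (12 and 7 reads at P28 and P7) and Cldn1 (6 and 7 reads) had intervals that hold 1. Cldn3 and Cldn4 lie 39.3 kb apart on chromosome 5 on opposite strands, and the Cldn3 level was 88.7 times that of Cldn4 at P28 and 28.6 times at P7.

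**Figure D3:**
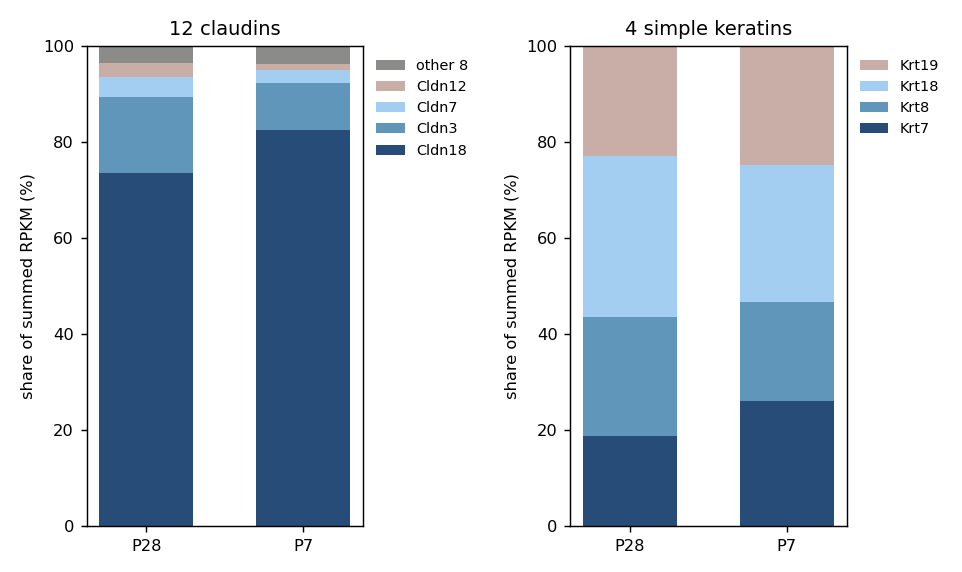
Share of the summed RPKM (%, bars from 0) held by each claudin among the 12 claudins (left) and by each keratin among the 4 keratins (right), in the P28 and the P7 library. Cldn18 holds 73.5% at P28 and 82.5% at P7, and Krt7 holds 18.7% at P28 and 26.2% at P7.

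The start regions of the claudins on which these statements turn are given here, each the 250 bases before a RefSeq start (GRCm38.p6), 5′ to 3′ on the gene's strand. Both Cldn18 starts are shown because the deposited value joins them, Cldn3 and Cldn4 because the neighbours differ so widely in level, and Cldn6 because it differed most between the ages. Capitals mark matches on either strand to any of 6 short motifs searched, namely the E-box CAGGTG, the GC box GGGCGG, the AP-1 site TGANTCA, the NKX2-1 core CTCAAG, the Grainyhead-like site AACCNGTT and the TATA box TATAAA. The windows in order are chr9:99717268-99717517, chr9:99710064-99710313, chr5:134985964-134986213, chr5:134946935-134947184 and chr17:23679115-23679364.
Cldn18, upstream start, minus strand: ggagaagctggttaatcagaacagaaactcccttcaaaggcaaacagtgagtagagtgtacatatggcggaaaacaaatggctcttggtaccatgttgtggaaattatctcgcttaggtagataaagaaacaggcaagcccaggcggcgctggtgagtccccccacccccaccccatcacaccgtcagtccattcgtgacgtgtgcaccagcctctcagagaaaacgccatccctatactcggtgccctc
Cldn18, downstream start, minus strand: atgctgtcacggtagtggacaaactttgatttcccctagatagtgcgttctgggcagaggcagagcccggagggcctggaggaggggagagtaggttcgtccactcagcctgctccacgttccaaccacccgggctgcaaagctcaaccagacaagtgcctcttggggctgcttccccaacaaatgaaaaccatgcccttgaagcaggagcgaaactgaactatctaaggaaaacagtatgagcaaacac
Cldn3, plus strand: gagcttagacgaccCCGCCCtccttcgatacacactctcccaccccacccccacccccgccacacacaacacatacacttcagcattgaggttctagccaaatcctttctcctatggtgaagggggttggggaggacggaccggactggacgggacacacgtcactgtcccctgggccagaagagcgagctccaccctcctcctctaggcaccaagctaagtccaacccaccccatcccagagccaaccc
Cldn4, minus strand: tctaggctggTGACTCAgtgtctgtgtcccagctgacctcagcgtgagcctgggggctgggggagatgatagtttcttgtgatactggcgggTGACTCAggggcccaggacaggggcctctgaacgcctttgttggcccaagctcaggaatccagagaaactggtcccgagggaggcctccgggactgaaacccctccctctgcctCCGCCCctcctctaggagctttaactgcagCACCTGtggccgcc
Cldn6, plus strand: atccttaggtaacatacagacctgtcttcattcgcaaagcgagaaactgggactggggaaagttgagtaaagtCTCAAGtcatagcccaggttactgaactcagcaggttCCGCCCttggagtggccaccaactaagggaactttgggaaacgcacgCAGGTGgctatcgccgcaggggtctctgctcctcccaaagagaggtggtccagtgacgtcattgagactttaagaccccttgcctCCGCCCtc
Neither Cldn18 window held any of the 6 motifs. The Cldn3 window held 1 GC box, and the Cldn4 window held an E-box that begins 14 bases before the start, 1 GC box and AP-1 letters that begin 240 and 158 bases before it. In the Cldn6 window the NKX2-1 letters begin 177 bases and an E-box 93 bases before the start, beside 2 GC boxes. A match describes the letters only and shows no binding.

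Among the other tight junction genes, Tjp1 had the largest difference. Tjp1 encodes ZO-1, the scaffold that binds claudin tails and actin, and had 14.9 RPKM at P28 and 25.9 RPKM at P7 (chromosome 7, 65296165 to 65527781). It was 1.74-fold lower (ratio 0.574, 0.544 to 0.606), at -0.76 on the log2 scale as deposited and -1.14 with equal totals. Its paralog Tjp3 (ZO-3) was far less abundant, with 1.56 RPKM at P28 and 2.17 at P7 (0.546 to 0.936). Occludin (Ocln), a strand protein beside claudins, had 4.37 RPKM at P28 and 6.56 at P7 (ratio 0.666, 0.582 to 0.759). Magi1, a membrane-associated scaffold, had 1.58 RPKM at P28 and 2.59 at P7 (ratio 0.610, 0.504 to 0.741). Marveld2 (tricellulin, which seals the corners where 3 cells meet) had 3.04 RPKM at P28 and 4.15 at P7 (ratio 0.734, 0.598 to 0.90). These 5 genes were lower at P28 beyond counting error.

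The remaining tight junction partners differed little as deposited. F11r, encoding the adhesion molecule JAM-A, had 22.5 RPKM at P28 and 22.9 at P7 (ratio 0.982, 0.905 to 1.07). Cgnl1 (paracingulin) had 9.23 RPKM at P28 and 9.33 at P7 (ratio 0.989, 0.915 to 1.07). Magi3 had 10.7 and 11.5 RPKM at P28 and P7 (0.860 to 0.998), and Cgn (cingulin, an actin and microtubule linker) had 4.12 and 4.80 RPKM (0.752 to 0.979), small differences whose intervals end just below 1. Marveld3 was the only one of the 10 with a higher value at P28, 2.98 RPKM against 2.5 at P7 (0.899 to 1.58), and its log2 ratio of 0.19 turned to -0.10 with equal totals. The median log2 ratio of the 10 genes was -0.25, and 7 of them had intervals wholly below 1.

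The polarity genes, which place the junction at the apical edge, were lower at P28 to different degrees. Pard6b, the adaptor that carries atypical protein kinase C, had 11.9 RPKM at P28 and 19.3 RPKM at P7 (chromosome 2, 168081004 to 168101203). It was 1.62-fold lower (ratio 0.616, 0.565 to 0.671), and its log2 ratio of -0.66 became -1.03 with equal totals. Its partner scaffold Pard3 had 3.66 RPKM at P28 and 4.0 at P7 (ratio 0.914, 0.788 to 1.06), so that the Pard6b level was 3.25 times that of Pard3 at P28 and 4.82 times at P7 (change 0.674, 0.569 to 0.797). Crb3, the apical Crumbs protein, had 3.62 RPKM at P28 and 4.81 at P7 with an interval that holds 1 (0.572 to 1.00).

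In the adherens junction, E-cadherin had nearly the same deposited level at both ages, while Ctnna1 and Ctnnd1 were lower at P28. Cdh1 (E-cadherin, chromosome 8, 106603351 to 106670246) had 61.2 RPKM at P28 and 61.3 RPKM at P7 (ratio 0.997, 0.961 to 1.04), and was the second most abundant of the 39 genes. With equal totals its log2 ratio was -0.39, close to the -0.38 of the median gene. Ctnna1 (alpha-catenin, the link to actin) had 34.5 RPKM at P28 and 39.5 at P7 (ratio 0.874, 0.830 to 0.921). Ctnnd1 (p120-catenin, which holds cadherins at the membrane) had 20.1 RPKM at P28 and 30.0 at P7 (ratio 0.671, 0.636 to 0.708). Relative to Cdh1 in the same library, Ctnnd1 stood at 0.329 at P28 and 0.488 at P7 (change 0.673, 0.631 to 0.718), and Ctnna1 at 0.565 and 0.644 (change 0.877, 0.823 to 0.935). Beta-catenin (Ctnnb1), the other catenin on the cadherin tail, differed the other way, with 122 RPKM at P28 and 91.8 at P7 (ratio 1.33, 1.29 to 1.38). The Ctnnb1 log2 ratio of 0.41 became 0.02 with equal totals, and its level relative to Cdh1 was 2.0 at P28 and 1.5 at P7 (change 1.34, 1.27 to 1.41).

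Desmosome genes all had the lower value at P28, though the intervals of Dsg2 and Dsc2 held 1. Jup (plakoglobin, a catenin shared with the adherens junction) had 8.60 RPKM at P28 and 12.4 at P7 (ratio 0.693, 0.622 to 0.771). Dsp (desmoplakin, which binds keratin filaments) had 5.16 RPKM at P28 and 7.16 at P7 (ratio 0.721, 0.665 to 0.781). Jup and Dsp kept nearly the same proportion, 1.67 at P28 and 1.73 at P7 (change 0.96, 0.841 to 1.10). The plakophilin gene Pkp2 had 6.09 RPKM at P28 and 7.93 at P7 (0.669 to 0.881), and its relative Pkp3 had 0.748 and 1.17 (0.435 to 0.947). The desmosomal cadherin gene Dsg2 had 1.67 RPKM at P28 and 1.97 at P7 (0.696 to 1.02). Its partner cadherin Dsc2 was below 1 RPKM, with 10 reads at P28 and 16 at P7 (ratio 0.448, 0.181 to 1.05). The 5 genes measured at 1 RPKM or more had log2 ratios between -0.48 and -0.16 with a median of -0.33, and none reached 2-fold, also with equal totals. Epcam, an epithelial adhesion protein outside the classical junctions, had 21.8 RPKM at P28 and 25.5 at P7 (ratio 0.855, 0.782 to 0.934).

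The 4 keratins, which form the filaments of simple epithelia from type I and type II partners, were each lower at P28 with intervals wholly below 1. Krt7 (type II) had 8.43 RPKM at P28 and 17.5 RPKM at P7 (chromosome 15, 101411043 to 101430313), the largest difference among the 20 genes that reached 5 RPKM. The plain ratio was 2.07-fold lower (1.90 to 2.26), while the log2 ratio of (RPKM + 1) was -0.97, just short of 2-fold, and -1.33 with equal totals. Krt19 (type I) had 10.4 RPKM at P28 and 16.5 at P7 (ratio 0.627, 0.547 to 0.719). The obligate partners Krt8 and Krt18 differed less. Krt8 had 11.2 RPKM at P28 and 13.7 at P7 (ratio 0.82, 0.723 to 0.93), and Krt18 had 15.0 at P28 and 19.1 at P7 (ratio 0.786, 0.694 to 0.891). The Krt8 level was 0.744 of that of Krt18 at P28 and 0.713 at P7 (change 1.04, 0.876 to 1.24), so the partners kept their proportion within counting error. Krt7 relative to Krt8 was 0.753 at P28 and 1.28 at P7 (change 0.589, 0.506 to 0.685), so the order of these type II keratins was opposite at the 2 ages. The summed RPKM of the 4 keratins was 45.0 at P28 and 66.8 at P7.

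Krt7, Krt8 and Krt18 lie in the type II keratin cluster of chromosome 15, Krt8 and Krt18 23.7 kb apart with starts facing away from each other, and Krt7 566 kb from Krt8. Their start regions are shown because the neighbours Krt8 and Krt18 kept their proportion and Krt7 did not. They cover chr15:101412153-101412402, chr15:102004343-102004592 and chr15:102027966-102028215, drawn as for the claudins.
Krt7, plus strand: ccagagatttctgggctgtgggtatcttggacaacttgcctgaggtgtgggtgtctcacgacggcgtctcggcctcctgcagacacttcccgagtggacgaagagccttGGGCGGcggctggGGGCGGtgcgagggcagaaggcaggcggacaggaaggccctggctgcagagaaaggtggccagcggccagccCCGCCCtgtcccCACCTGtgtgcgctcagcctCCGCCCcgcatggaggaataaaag
Krt8, minus strand: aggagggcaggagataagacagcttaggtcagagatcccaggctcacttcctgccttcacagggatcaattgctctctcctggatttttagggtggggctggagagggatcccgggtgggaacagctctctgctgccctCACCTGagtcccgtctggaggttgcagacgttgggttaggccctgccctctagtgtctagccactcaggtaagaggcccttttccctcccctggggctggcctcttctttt
Krt18, plus strand: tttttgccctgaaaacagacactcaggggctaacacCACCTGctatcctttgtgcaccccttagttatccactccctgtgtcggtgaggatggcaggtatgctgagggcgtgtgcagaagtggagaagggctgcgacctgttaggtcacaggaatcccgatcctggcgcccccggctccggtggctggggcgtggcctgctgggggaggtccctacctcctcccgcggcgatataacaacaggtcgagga
Each held 1 E-box, which begins 44 bases before the start in Krt7, 111 bases in Krt8 and 214 bases in Krt18. Krt7 also held 4 GC boxes, while Krt8 and Krt18 held none of the other motifs.

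Start windows were found for 29 of the 39 genes, 41 windows in all, since some genes have several starts whose windows overlap. E-box letters occurred in 16 of the 41 (39%), against 17.2% of 32851 windows of all genes. GC boxes occurred in 27 (65.9%, against 32.7%). The windows of these genes were also richer in G and C, with a median of 60.0% against 52.4%, and held a median of 12 CpG against 6. The NKX2-1 letters were in 14.6% (13.3% of all), AP-1 in 7.32% (6.75%), TATA letters in 12.2% (12.4%), and the Grainyhead-like site in 1 window, that of Cgn (2.44%, against 1.79%). E-box letters were found both in genes with ratios wholly below 1 (Krt7, Ocln, Pard6b) and in genes whose interval held 1 (Cldn7, F11r).

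**Figure D4:**
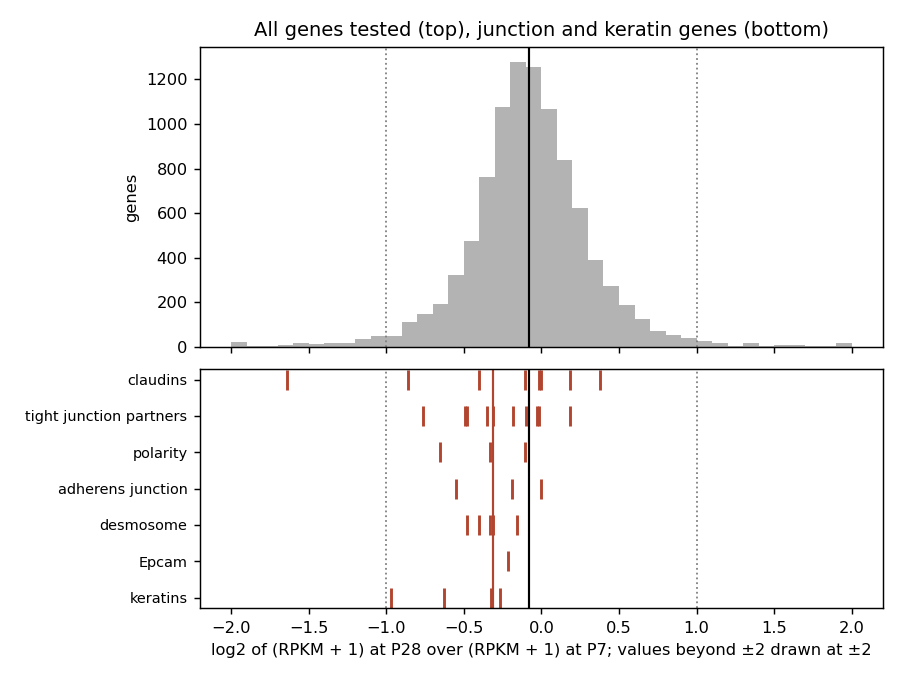
Top, number of genes by log2 ratio of (RPKM + 1), P28 over P7, for the 9653 genes tested, and bottom, the same ratio for each of the 34 junction and keratin genes tested, 1 tick per gene and 1 row per role. Black lines mark the median of all genes (-0.08), the coloured line the median of the 34 (-0.31), and dotted lines 2-fold, and only Cldn6 lies left of the lower 2-fold line.

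The plot of log2 ratios by role shows the genes of each role within the spread of all genes, mostly left of its median. As medians, keratins stood at -0.48, desmosome genes at -0.33, polarity genes at -0.33, tight junction partners at -0.25, adherens junction genes at -0.19 and claudins at -0.06. Relative to the median gene, these values are -0.39, -0.25, -0.25, -0.16, -0.11 and 0.02. Across the 34 genes, 26 lay below the median gene. At the other end, 5 genes were within 2.5% of an equal deposited level, namely Cdh1, Cldn3, Cldn7, F11r and Cgnl1.

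Other genes of the same structures were examined from lists of related genes, with 2-fold again read on the log2(RPKM + 1) scale among genes that reached 1 RPKM. Of 25 further tight junction and polarity genes, all 25 were measured, 18 reached 1 RPKM, and none of the 18 was 2-fold apart in either direction, with a median log2 ratio of -0.17. Lin7c, a polarity scaffold, had 15.3 RPKM at P28 and 12.7 at P7, a log2 ratio of 0.25 that turned to -0.12 with equal totals. Amotl1, an actin-linked scaffold, had 4.90 RPKM at P28 and 6.63 at P7, and Lsr, which brings tricellulin to cell corners, had 6.72 at P28 and 8.16 at P7. Of 12 further adherens junction genes measured, 8 reached 1 RPKM and none of the 8 was 2-fold apart. The nectin genes Nectin1 and Nectin3, which encode immunoglobulin-like adhesion proteins, differed in opposite directions, Nectin1 with 6.97 RPKM at P28 and 4.79 at P7 (1.30 to 1.63) and Nectin3 with 9.32 at P28 and 13.8 at P7 (0.620 to 0.735). Limd1, a LIM protein of the adherens junction, had 4.90 RPKM at P28 and 6.40 at P7. Of 14 further desmosome, hemidesmosome and linker genes, 7 reached 1 RPKM and none of the 7 was 2-fold apart. Itga6, an integrin subunit of hemidesmosomes, had 5.32 RPKM at P28 and 8.12 at P7 (ratio 0.655, 0.582 to 0.736). Pkp4, an armadillo protein related to p120-catenin, had 11.3 RPKM at P28 and 14.1 at P7. The desmosome genes Perp and Ppl had 7.47 and 7.44 RPKM at P28 against 6.84 and 7.14 at P7, with intervals that hold 1. Among 12 further keratins only Krt23 and Krt80 reached 1 RPKM, and Krt23 had 7.77 RPKM at P28 and 5.83 at P7 (ratio 1.33, 1.10 to 1.62), a log2 ratio of 0.36 that was 0.02 with equal totals. Of 8 gap junction genes, 3 reached 1 RPKM and none of the 3 was 2-fold apart on that scale. Among them, Gja1 (connexin 43) had 13.8 RPKM at P28 and 16.4 at P7.

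Of 17 regulators of epithelial junctions, 11 reached 1 RPKM and none of the 11 was 2-fold apart on the log2(RPKM + 1) scale. The pseudocount weighs on the low ones: Zeb2, a repressor of Cdh1, had 0.191 RPKM at P28 and 1.15 at P7, a plain ratio of 0.166 (0.102 to 0.266) but a log2 ratio of -0.85. Ehf, an epithelial transcription factor, had 11.8 RPKM at P28 and 7.22 at P7 (ratio 1.63, 1.48 to 1.80). The splicing regulators Esrp1 and Esrp2 were lower at P28, Esrp1 with 5.95 RPKM at P28 and 8.25 at P7 (0.639 to 0.812) and Esrp2 with 4.75 at P28 and 8.39 at P7 (0.496 to 0.645). Prss8, a membrane-anchored protease known from epithelial barriers, had 13.8 RPKM at P28 and 17.8 at P7 (0.694 to 0.873). With equal totals the log2 ratio of Esrp2 was -1.05, past 2-fold.

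Markers of other lung cells differed in the same comparison, and several of those cells express genes described above. Type 1 cells carry Cldn18 and Krt7, among others, and 9 of 10 type 1 markers were lower at P28, with 2 at least 2-fold lower, none at 0 and a summed RPKM of 259 at P28 and 443.5 at P7. Those 2 type 1 markers were Akap5, with 21.7 RPKM at P28 and 78.9 at P7, and Spock2, with 11.95 at P28 and 26.2 at P7. Rtkn2 had 5.02 at P28 and 10.2 at P7, a log2 ratio of -0.90 and so short of 2-fold on the log2(RPKM + 1) scale. Of 10 endothelial markers 9 were lower, 5 of the 9 at 1 RPKM or more by at least 2-fold, with sums of 22.5 at P28 and 46.2 at P7. VE-cadherin (Cdh5) had 2.77 RPKM at P28 and 9.44 at P7. Esam, the endothelial marker that was not lower, had 10.2 RPKM at P28 and 9.68 at P7 (ratio 1.06, 0.915 to 1.22). The endothelial claudin Cldn5 was also lower, with 0.546 RPKM at P28 and 2.45 at P7. Of 10 fibroblast markers 8 were lower, with sums of 28.8 at P28 and 53.6 at P7, and no marker at 0 in either list. The elastic fibre gene Eln had 3.77 RPKM at P28 and 10.2 at P7. The 2 fibroblast markers that were higher at P28 were Dcn and Pdgfra, both at low levels. Dcn had 1.35 RPKM at P28 and 0.490 at P7 (1.55 to 5.25), and Pdgfra had 0.730 at P28 and 0.152 at P7 (2.72 to 9.55). Mesothelial cells express simple keratins, and 5 of 7 of their markers were higher and 2 lower, with sums of 7.31 at P28 and 8.51 at P7. Only 3 of the 7 reached 1 RPKM. Mesothelin (Msln) had 1.19 RPKM at P28 and 5.24 at P7, while Upk3b had 2.04 at P28 and 1.23 at P7 and Gpm6a had 2.09 and 0.975. Club and ciliated cell markers were higher at P28 in 7 of 8, with sums of 19025 at P28 and 7291 at P7. Most of each sum was the club cell gene Scgb1a1, with 18104 RPKM at P28 and 6764 at P7. The median log2 ratio of the 8 was 0.44 as deposited and 0.08 with equal totals. The 5 basal cell markers summed to 0.289 RPKM at P28 and 0.611 at P7, and Krt14 was at 0 in both. The 8 leukocyte and macrophage markers summed to 1.22 RPKM at P28 and 0.713 at P7, with Marco, C1qa, C1qb and Cd79a at 0 in both. As deposited, 9 of 10 type 2 cell markers were higher at P28, while most junction and keratin genes were lower. With equal totals the log2 ratios of Abca3 (-0.31), Slc34a2 (-0.21), Napsa (-0.26) and Etv5 (-0.39) were below 0, and those of the other type 2 markers stayed above 0. The part of the type 2, type 1, endothelial, fibroblast, mesothelial and airway cells in the junction and keratin values was not tested.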

How the data were processed

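RPKM values, 1 column per library, were deposited by the authors, per the file headers. TopHat, TopHat2 2.0.9 and the GRCm38 (mm10) genome are named, without a role, per the submitters' processing notes. Which program and annotation gave the RPKM values, with what filters and strand setting, is not stated there. No column of per-sample values was left over. Members and lists were chosen with earlier results of these data known.

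The ratio P28 over P7 was computed as log2 of (RPKM + 1), and only where either library reached 1 RPKM. The pseudocount understates differences of low genes. A gene was called at 2-fold. Plain ratios and their intervals use no pseudocount.

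Reads were recovered from low values (RPKM times kilobases under 0.6) of genes with a single RefSeq-linked GENCODE transcript length. Of 2677 such genes at P28 and 2481 at P7, 57.5% and 61.0% lay within 0.05 of a whole read, where chance gives 10%. The step for 1 read on 1 kilobase was 0.0408 RPKM at P28 and 0.0570 at P7. Of the 39 genes, 23 have a single length. The others took the mean. Some genes with a single length also fell off whole reads, such as Cldn6 with 8.6 at P28 and 79.4 at P7. Reads and intervals are therefore approximate for all 39 genes. Clopper-Pearson intervals used these reads, and PCR reads are not independent molecules.

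Positions are from GENCODE M21, promoters from RefSeq. All 39 genes are described. From each further list the text names at most 4 genes, those that differed most on the log2 scale among genes reaching 5 RPKM, and 1 gene under this rule is not reported here. Named outside this rule are Cldn5, Cldn9, Krt80, Zeb2, Cdh2, Cdh3, Gjb6, Llgl2, Pard6g, Ajuba, the sex-linked genes and markers at 0, all chosen after their values were seen. Dcn, Pdgfra, Upk3b, Gpm6a, Abca3, Slc34a2, Napsa and Etv5 were also named outside it, after their values were seen. Python 3.11.15, numpy 2.4.6, pandas 2.3.3, scipy 1.17.1 and matplotlib 3.10.9 were used. The calls were also run on simulated reads with known folds. That simulation held counting error only, so it cannot show how the calls fare with variation between animals.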

Additional observations from a re-analysis of the deposited data

How the results depend on the processing

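Settings were changed one at a time. The median log2 ratio of the measured genes stayed below 0 under all 7 alternatives, between -0.60 with equal totals and -0.18 with a pseudocount of 5, and the number at least 2-fold higher at P28 was 0 in each. A pseudocount of 0.1 gave 2 genes of the 34 lower (Cldn6 and Krt7), with 226 higher and 530 lower of all genes. A pseudocount of 5 gave 0, with 39 and 34. A filter of 5 RPKM left 20 of the 39 genes, with 0 lower and 15 below the median gene, and 73 higher and 93 lower of all genes, since fewer genes were tested. Equal totals gave 5 lower, a median of -0.60, and 65 higher and 445 lower, and no interval remained wholly above 1 (0 genes). Each shift of a log2 ratio from its main value was set against the distance from the plain ratio to the end of its counting interval. Of 34 single values, 24 shifted by more than that distance with equal totals and 5 with a pseudocount of 5. So did 5 with the median gene set to 0 and 1 with a pseudocount of 0.1. No call turned to the opposite direction, though calls were lost and gained as given above. With the median gene set to 0, 8 of the 34 log2 ratios lay above 0, against 3 as deposited. The number was also 8 with the upper quartiles of the 2 libraries set equal. No paired analysis was possible because each age has 1 library. For the same reason no library could be left out. Depth limits Cldn1, Cldn2, Cldn4, Cldn6, Cldn15 and Dsc2, each with under 20 reads at P28.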

Other observations

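Some genes related to the junctions were chosen after their values were seen. Cdh3 (P-cadherin) had 0.0907 RPKM at P28 and 0.886 at P7, 10 and 68 reads (ratio 0.102, 0.0483 to 0.205). Cdh2 (N-cadherin) had 1 read at P28 and 21 reads at P7 (ratio 0.0358, 0.000823 to 0.212). Both classical cadherins stood far below Cdh1 in both libraries. Gjb6 (connexin 30) had 3.79 RPKM at P28 and 1.70 at P7 (ratio 2.22, 1.67 to 3.00), a log2 ratio of 0.83 and so short of 2-fold on that scale. Llgl2, a basolateral polarity gene, had 1.51 RPKM at P28 and 3.28 at P7 (ratio 0.459, 0.368 to 0.577), and its log2 ratio was -0.77 as deposited and -1.05 with equal totals. Also past 2-fold lower on the plain ratio were Pard6g, with 0.815 RPKM at P28 and 1.79 at P7 (0.326 to 0.630), and Ajuba, with 0.805 at P28 and 1.90 at P7 (0.309 to 0.579).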
